A study of Danio rerio with 6 samples.

Results

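The genes g1, g302 and g227 are 3 of the 684 FiNZ zinc finger genes (FZNFs) that the study annotated in zebrafish, among 35218 genes and repeat families counted. They were chosen by their counts in these libraries: well expressed after injection of a scrambled Morpholino oligonucleotide (MO), and higher after injection of the FZNF MO in every library. That they are higher is therefore no finding, and their difference between the 2 conditions is given as a description with no test. Fertilized zygotes of the wild-type Tuebingen strain received 4.5 ng of either the FZNF MO, a single oligonucleotide made to block translation at the start site of many FZNFs, or a 25N scrambled MO, which is a mixture of random sequences. Whole embryos were collected 6 h after fertilization, at shield stage, and each library holds the poly(A) RNA of 1 pool of embryos. Both conditions were injected side by side in 3 pairs, which gave 3 libraries per condition. Pairs 1 and 2 were collected on 12 May and pair 3 on 17 May. Both conditions are wild type, and uninjected embryos were not analysed here, so effects that both MOs share cannot be seen.

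FZNFs encode proteins with a short N-terminal FiNZ domain, which defines the family in cyprinid and related fish, followed by a tandem array of Cys2-His2 zinc fingers. Each finger of this type can contact a few bases of DNA, so an array reads a longer site. The family grew by repeated local duplication on the long arm of chromosome 4, and many of its genes are first transcribed when the embryo starts to use its own genome. A translation-blocking MO binds an mRNA around its start codon and keeps ribosomes from starting there, so the transcript can stay in place while its protein is lost. Counts of transcripts therefore do not measure how much FZNF protein was left.

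The study's gene model places g1 on chromosome 4, from base 28419430 to base 28424192 of GRCz11 on the plus strand. The model has 2 exons. Exon 1 (28419430 to 28419748) holds the start codon at its base 28419664, and exon 2 (28422100 to 28424192) holds the rest of the reading frame, which ends at base 28423346. The coding length of g1 was 1332 bases within 2412 exonic bases. Models for g302 and g227 were not analysed here by position, but their coding sequences were read from the study's supplementary alignments. g302 has a coding length of 1152 bases and belongs to a group of 11 close paralogs that the study had put together by sequence, labelled relatives in the plots. g227 has a coding length of 1080 bases and belongs to another such group of 13. By the spacing of paired cysteines and histidines in the translated reading frame, g302 holds 9 zinc fingers in 383 residues and g227 holds 8 in 359 residues. The coding sequence of g1 was not used here.

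The start of the reading frame is shown because a translation-blocking MO acts there, with the first 23 bases in capitals. g397 and g330 are paralogs of g302 and g227.
g302: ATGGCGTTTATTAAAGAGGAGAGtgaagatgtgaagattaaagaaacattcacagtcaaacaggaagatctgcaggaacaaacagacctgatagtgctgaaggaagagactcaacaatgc
g397: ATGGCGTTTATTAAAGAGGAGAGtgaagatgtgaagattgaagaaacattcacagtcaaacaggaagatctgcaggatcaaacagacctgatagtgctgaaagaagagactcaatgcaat
g227: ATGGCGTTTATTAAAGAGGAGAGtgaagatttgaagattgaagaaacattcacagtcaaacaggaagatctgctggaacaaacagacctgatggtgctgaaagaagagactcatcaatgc
g330: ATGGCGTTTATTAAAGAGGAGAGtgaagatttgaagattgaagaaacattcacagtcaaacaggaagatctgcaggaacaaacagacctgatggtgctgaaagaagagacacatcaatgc
All 4 sequences share their first 23 bases, and 60 of the 85 coding sequences read from the study's 7 groups of paralogs (70.6%) start with the same letters. Read as its reverse complement, the MO sequence printed by the study ends in these same 23 bases. The bases just before the start codon were not read here, and whether the MO bound these transcripts was not tested. Past their start g302 and g227 diverged. Over the whole coding sequence they were 80.58% identical, with 130 substitutions and 96 gap columns. Identity is given here over all alignment columns, so each gap column counts as a difference. They had 0 windows of 150 bases in common, 150 bases being the length of 1 read.

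Each of the 6 libraries expressed the 9 genes taken as markers of the shield stage, such as the mesoderm gene tbxta (433 to 847 CPM, counts scaled to library size with TMM factors) and the enveloping layer keratin krt4 (3570 to 4111 CPM). The globin gene hbae1.1 had 0 counts in all of them, and the muscle myosin myhz1.1, the insulin gene ins and the growth hormone gene gh1 stayed at or below 0.63 CPM. The globin hbbe1.1 was not matched by symbol. The oocyte gene zp2.1 was present, at 16.4 to 25.2 CPM with the FZNF MO and 8.51 to 16.2 CPM with the scrambled MO. The pluripotency gene pou5f3 was at 1044 to 1753 CPM with the FZNF MO and 712 to 913 CPM with the scrambled MO. FZNF MO replicate 1 was the highest library for pou5f3, tbxta, gsc (75.4 CPM), chrd (425), noto (78.1), eve1 (182) and ved (518). For sox32 it was level with scrambled MO replicate 1 (152 CPM in both), and for krt4 it was not the highest (3606 CPM). Whether these differences have a part in those of g1, g302 and g227 was not tested. The libraries held 16306069 to 20567549 counts. All FZNFs together made up 0.713% to 1.21% of the counts with the FZNF MO and 0.476% to 0.554% with the scrambled MO. In pools of whole embryos a higher count can come from more cells that express a gene or from more RNA per cell, and these cannot be told apart.

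g1 had 1182, 1300 and 1262 counts in scrambled MO replicates 1, 2 and 3, and 4024, 4027 and 4530 counts in FZNF MO replicates 1, 2 and 3. In CPM these were 67.8, 68.3 and 72.3 with the scrambled MO, and 194, 252 and 272 with the FZNF MO. The scrambled MO libraries lay close together, the FZNF MO libraries spread more, and the groups did not overlap. The lowest FZNF MO library stood at 2.68 times the highest scrambled MO library. The mean level of g1 was 69.5 ± 2.48 CPM (SD, n = 3) with the scrambled MO and 239 ± 40.4 CPM (SD, n = 3) with the FZNF MO.

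**Figure D1:**
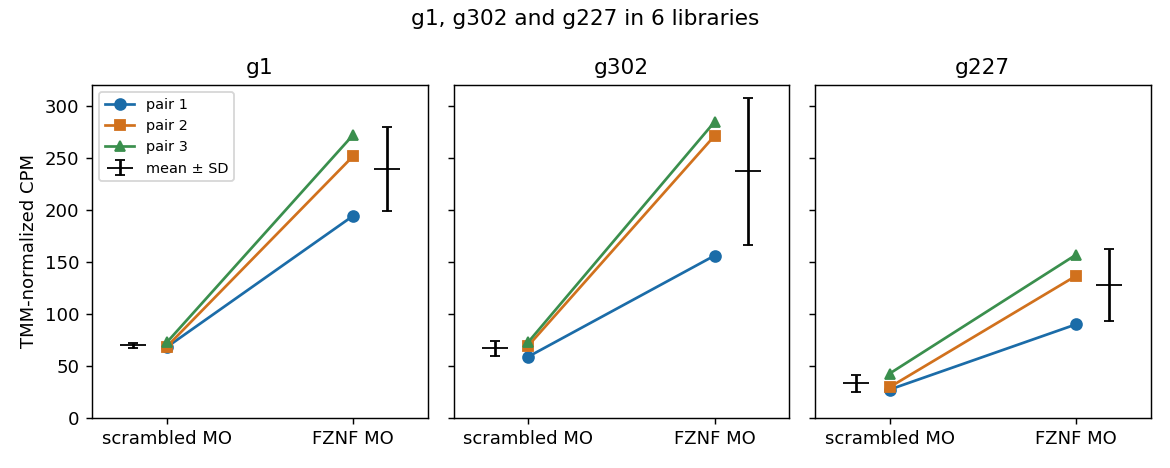
TMM-normalized CPM of g1, g302 and g227 in the scrambled MO and the FZNF MO library of each pair (points joined by a line), with the mean ± SD of the 3 libraries beside each group. In all 3 genes the FZNF MO libraries sit above the scrambled MO libraries, and pair 1 has the lowest FZNF MO value (194, 156 and 89.7 CPM).

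g302 had 1021, 1314 and 1266 counts in scrambled MO replicates 1 to 3, and 3230, 4339 and 4738 counts in FZNF MO replicates 1 to 3. The levels were 58.6, 69.0 and 72.5 CPM with the scrambled MO, and 156, 271 and 284 CPM with the FZNF MO. FZNF MO replicate 1 stood well below replicates 2 and 3, yet still at 2.15 times the highest scrambled MO library. The means were 66.7 ± 7.27 CPM (SD, n = 3) and 237 ± 70.7 CPM (SD, n = 3).

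g227 had fewer counts, with 470, 557 and 739 in scrambled MO replicates 1 to 3 and 1859, 2182 and 2609 in FZNF MO replicates 1 to 3. The levels were 27.0, 29.3 and 42.3 CPM with the scrambled MO, and 89.7, 136 and 157 CPM with the FZNF MO. Scrambled MO replicate 3 was the highest of its group for this gene, and the groups again did not overlap. The means were 32.9 ± 8.30 CPM (SD, n = 3) and 128 ± 34.3 CPM (SD, n = 3).

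Within pairs 1, 2 and 3, the level of g1 with the FZNF MO was 2.86, 3.68 and 3.76 times that with the scrambled MO. The same ratio was 2.66, 3.93 and 3.92 for g302. For g227 it was 3.33, 4.66 and 3.70. Pair 1 gave the lowest ratio for each gene, and that pair also had the smallest difference over all FZNFs, whose summed level with the FZNF MO was 1.51, 2.06 and 2.21 times that with the scrambled MO in pairs 1, 2 and 3. Fitted across all features in edgeR with the pair as a block, the log2 fold change was 1.77 for g1 (SE 0.12), 1.79 for g302 (SE 0.13) and 1.95 for g227 (SE 0.13). For comparison, the 518 FZNFs that passed the filter on low counts had a median of 0.62 on this scale, and all 17804 features a median of -0.0090.

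Per kilobase of coding sequence, g302 stood at 57.9 ± 6.31 CPM (SD, n = 3) with the scrambled MO, g1 at 52.2 ± 1.86 and g227 at 30.4 ± 7.68. The ranges of g302 (50.8 to 63.0) and g1 (50.9 to 54.3) overlapped, while every value of g227 (25.0 to 39.2) lay below both. With the FZNF MO the same quantity was 206 ± 61.4 for g302, 180 ± 30.3 for g1 and 118 ± 31.8 for g227 (SD, n = 3 each). There the range of g302 (135 to 247) overlapped those of g1 (146 to 204) and g227 (83.0 to 145), while every value of g227 lay below every value of g1. This scale divides by the coding length alone, although reads from untranslated exon sequence were counted too.

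The 3 genes held a larger share of all FZNF counts with the FZNF MO. As they were chosen for being higher, this is a description only. In the scrambled MO libraries of pairs 1, 2 and 3 their joint share was 3.28%, 3.29% and 3.39%. In the FZNF MO libraries of the same pairs it was 6.21%, 6.31% and 5.85%. For pair 1 the exact 95% binomial interval of the share was 3.16% to 3.41% with the scrambled MO and 6.09% to 6.34% with the FZNF MO, a range that reflects counting error alone. Both groups were tight on this scale, at 3.32% ± 0.0633 and 6.12% ± 0.245 (SD, n = 3 each), although the absolute level of the 3 genes varied from 440 to 713 CPM over the FZNF MO libraries. Of the difference in summed FZNF level between the 2 libraries of a pair, the 3 genes made up 11.9%, 9.16% and 7.87% in pairs 1, 2 and 3.

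The shares of the single genes differed in their steadiness. Over pairs 1, 2 and 3, g227 took 1.27%, 1.31% and 1.28% of the FZNF counts after the FZNF MO, against 0.577%, 0.577% and 0.768% after the scrambled MO. The share of g1 was 2.74%, 2.41% and 2.23% after the FZNF MO, against 1.45%, 1.35% and 1.31%. That of g302 was 2.20%, 2.60% and 2.33% after the FZNF MO, against 1.25%, 1.36% and 1.32%. No FZNF MO share lay within the scrambled MO range for any of the 3 genes. g302 had 0.803 counts for each count of g1 in FZNF MO replicate 1 and 0.864 in scrambled MO replicate 1, but 1.003 to 1.08 in the other 4 libraries. The ratio was thus lowest in both libraries of pair 1, whichever MO they had received.

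**Figure D2:**
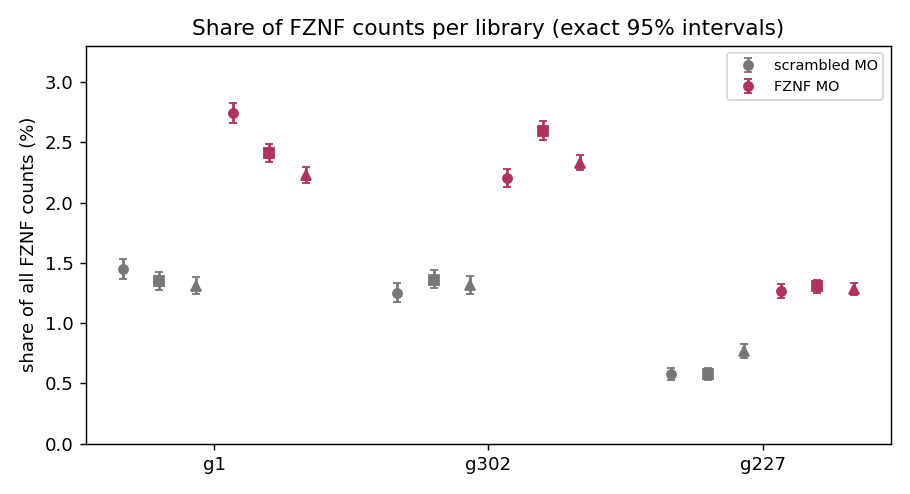
Share of all FZNF counts taken by g1, g302 and g227 in each library, in percent, with exact 95% binomial intervals (circle, square and triangle for replicates 1, 2 and 3). For each gene the FZNF MO libraries lie above the scrambled MO libraries, and g227 shows almost the same share in the 3 FZNF MO libraries (1.27% to 1.31%).

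The collection day, which played no part in the choice of the genes, was tested with the MO as a second term. The fit had no block for the pair, so both libraries of a pair counted as independent. Its SEs and p-values therefore do not measure how pairs or days vary. The level on 17 May relative to 12 May differed by 0.19 on the log2 scale for g1 (SE 0.15), by 0.30 for g302 (SE 0.22) and by 0.53 for g227 (SE 0.19). For comparison, the 518 FZNFs tested had a median of 0.40 on this scale, and the 15309 Ensembl genes tested a median of -0.045. The adjusted p was 0.85, 0.84 and 0.74 (edgeR's quasi-likelihood test, Benjamini-Hochberg over all features), so none of the 3 was called. In that comparison edgeR called 0 of 17804 features, which is 0% in either direction, while 1154 had an unadjusted p under 0.05 and DESeq2 called 33 higher and 74 lower. Among 518 FZNFs edgeR called 0, 75 had an unadjusted p under 0.05, g227 among them (0.0224), and DESeq2 called 7 higher and 0 lower. Without replicate 1 edgeR called 16 FZNFs higher and 1 lower, and without replicate 2 it called 11 higher and 1 lower, none of the 3 genes among them. One pair was collected on 17 May, so day and injection batch cannot be told apart. Without replicate 1 or 2, each day was left with 1 pair. Calls over all features were not counted in these 2 settings, so the FZNF counts there are not a result about FZNFs.

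Read counts of the family were ranked without regard to gene length. By mean CPM in scrambled MO libraries g1 was 1st of 684 FZNFs, g302 3rd and g227 27th, where the median FZNF stood at 3.20 CPM. With the FZNF MO they were 1st, 2nd and 7th. By fitted log2 fold change, however, 62 of the tested FZNFs were above g227, 76 above g302 and 78 above g1. The level thus ranked them higher than the fold did. Both a high level in controls and being higher with the FZNF MO were part of how the genes were chosen.

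Other FZNFs with as many counts in controls did not share one response. Just beside g302 in rank was g281, at 66.7 ± 17.9 CPM with the scrambled MO and 115 ± 20.5 CPM with the FZNF MO (SD, n = 3 each), which edgeR fitted as 0.80 ± 0.13 (SE) on the log2 scale. The next gene, g193, went the other way, from 60.7 ± 10.5 to 29.7 ± 29.4 CPM (SD, n = 3 each). Its FZNF MO counts were 163, 290 and 1051, so replicate 3 stood far above the others and close to the scrambled MO counts of 1086, 941 and 1226. edgeR called g193 lower (log2 fold change -1.48 ± 0.38 SE, adjusted p = 0.0452). That call was lost with DESeq2 (adjusted p = 0.226), with no block for the pair (0.574), without replicate 2 (0.305) and with RLE factors (0.0504). The log2 fold change was -0.77 without replicate 1 and -2.18 without replicate 3, both still called. g190, g235 and g214 were not called, with log2 fold changes of -0.29, -0.14 and -0.77.

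Among the 12 FZNFs with the most counts in controls, g250, g705, g397, g77 and g371 were called higher beside g281, with log2 fold changes of 0.99, 0.99, 1.69, 0.96 and 1.39. The calls of g281, g705 and g77 ended without the pair as a block (edgeR adjusted p = 0.183, 0.248 and 0.0526) and without replicate 2 (0.152, 0.0657 and 0.0595). Of the 50 FZNFs with the most counts in controls, 28 were called higher and 3 lower, and these 28 include the 3 genes chosen for being higher. The background was 160 of 518 FZNFs called higher (30.9%) and 583 of 17804 features called higher (3.27%). Of the same 518 FZNFs 25 were called lower, and of the 17804 features 388.

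**Figure D3:**
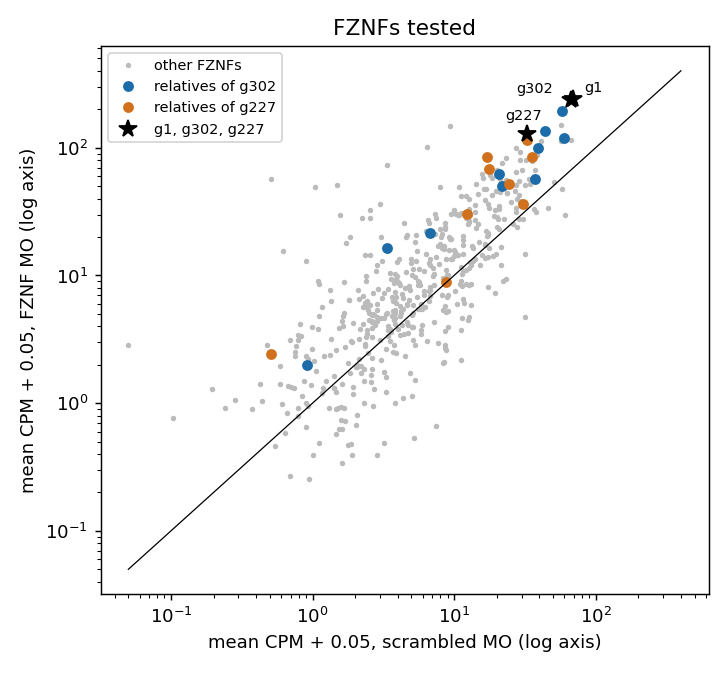
Mean TMM-normalized CPM plus 0.05 of the 518 FZNFs tested, with the scrambled MO (x axis) and the FZNF MO (y axis), both on log axes; the line marks equal levels. g1 and g302 lie on top of each other at the upper right end (69.5 and 66.7 CPM against 239 and 237 CPM), with g227 and many of the paralogs of g302 and g227 close to them and above the line.

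Most paralogs of g302 were also higher with the FZNF MO. The 10 other genes of its group were put together by the study from sequence alone, without these counts. In edgeR's quasi-likelihood test 9 of 10 were called higher and 0 lower, against 30.9% of FZNFs and 3.27% of all features, with a median log2 fold change of 1.44. FZNFs with many counts were called more often: 28 of the 50 with the most counts in controls, some of these paralogs among them. The 10th gene, g553, had 9 to 48 counts per library and was not called. In 9 of the 10 every FZNF MO library was above every scrambled MO library, as in 178 of the 518 FZNFs tested (34.4%) and 1508 of all 17804 features (8.47%). Without replicate 2, which left 78 FZNFs called higher in all, 5 of 10 were. The 3 with the most counts were g397, g250 and g493.

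g397 had 990, 1101 and 1013 counts with the scrambled MO and 2442, 3508 and 4094 with the FZNF MO, or 57.6 ± 0.673 and 194 ± 67.5 CPM (SD, n = 3 each). edgeR fitted 1.69 ± 0.18 (SE) on the log2 scale, with an adjusted p of 2.02e-04. g250 had 1026, 1221 and 970 counts with the scrambled MO and 2027, 2005 and 2227 with the FZNF MO (log2 fold change 0.99 ± 0.13 SE, edgeR adjusted p = 0.00111). g493 had 813, 875 and 664 counts with the scrambled MO and 2273, 2569 and 2275 with the FZNF MO (log2 fold change 1.63 ± 0.14 SE, edgeR adjusted p = 6.98e-05). In none of these 3 genes did the groups overlap.

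The group of 11 as a whole held 7.05% ± 0.555 of the FZNF counts with the scrambled MO and 10.1% ± 0.516 with the FZNF MO (SD, n = 3 each). g302 took 18.7% ± 1.92 of its group's counts with the scrambled MO and 23.6% ± 1.41 with the FZNF MO. As g302 was chosen for being higher, this is a description only. Without g302, its 10 paralogs held 6.29%, 5.78% and 5.13% of the FZNF counts in scrambled MO replicates 1 to 3. In FZNF MO replicates 1 to 3 they held 7.83%, 8.02% and 7.26%. When all 11 were summed into 1 feature, a step added after seeing the data, the log2 fold change was 1.45, against 1.79 for g302 alone.

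These counts may not be independent of one another, since reads can fit several paralogs. The coding sequences of 9 paralogs of g302 that could be read were 91.75% to 98.78% identical to it, and 8 of the 9 were at least 97% identical. The lowest value was that of g449, with 15 substitutions and 87 gap columns. The closest was g397, with 11 substitutions and a length difference of 3 bases. Counting from the A of the start codon of g302, the substitutions from g302 to g397 included A40G, A78T, G102A, T235A and G248A. The stretch with the length difference is shown because it tells the 2 genes apart, with the bases that differ in capitals.
g302: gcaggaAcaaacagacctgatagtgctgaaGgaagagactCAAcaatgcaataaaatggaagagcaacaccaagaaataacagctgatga
g397: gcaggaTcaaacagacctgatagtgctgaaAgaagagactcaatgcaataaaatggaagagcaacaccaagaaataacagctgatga
Of the 1003 windows of 150 bases in the coding sequence of g302, 357 (35.6%) also occurred unchanged in at least 1 of the 84 other coding sequences read. The paralogs sharing the most were g449 (225 windows, log2 fold change 1.64) and g246 (219 windows, 1.55), both called higher, followed by g397 (136 windows). Taken alone, a read from such a window fits both genes, and the counting tool in its multimapper mode could share it out among them. Fragments were sequenced from both ends, and whether the other end told the genes apart was not tested. FZNFs outside the 7 groups were not compared, so the share of such windows may be higher.

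Of the 12 paralogs of g227, 9 passed the filter on low counts. In 7 of these 9 every FZNF MO library was above every scrambled MO library, against 34.4% of FZNFs and 8.47% of all features tested. Among the 7 is g689, which passed the filter only through its FZNF MO counts. Its lack of overlap and its fold were thus in part set by the filter. By edgeR 6 of these 9 were called higher and 0 lower. That compares with 30.9% of FZNFs, 3.27% of all features and 28 of the 50 FZNFs with the most counts in controls. The median log2 fold change of the 9 paralogs was 1.25. Without replicate 2, 3 of the 78 FZNFs called higher were among them, and with no block for the pair 4 of 76. The 3 paralogs that did not pass, g331, g470 and g735, had 0 to 22 counts per library. Of the 3 that passed and were not called, g689 had the highest fold of all 9 at few counts, with 8, 11 and 6 after the scrambled MO and 38, 56 and 29 after the FZNF MO (log2 fold change 2.30 ± 0.62 SE, edgeR adjusted p = 0.0528). The 3 with the most counts were all called. g641 had 495, 635 and 643 counts with the scrambled MO and 1616, 1843 and 2550 with the FZNF MO (log2 fold change 1.77 ± 0.14 SE, edgeR adjusted p = 3.85e-05). g203 had 281, 324 and 313 counts with the scrambled MO and 1002, 1706 and 1641 with the FZNF MO (log2 fold change 2.24 ± 0.20 SE, edgeR adjusted p = 6.98e-05). The groups did not overlap in either gene. g169 had 676, 667 and 579 counts with the scrambled MO and 1152, 1492 and 1762 with the FZNF MO (log2 fold change 1.20 ± 0.19 SE, edgeR adjusted p = 0.00430). Its call was lost without replicate 2 (edgeR adjusted p = 0.119).

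**Figure D4:**
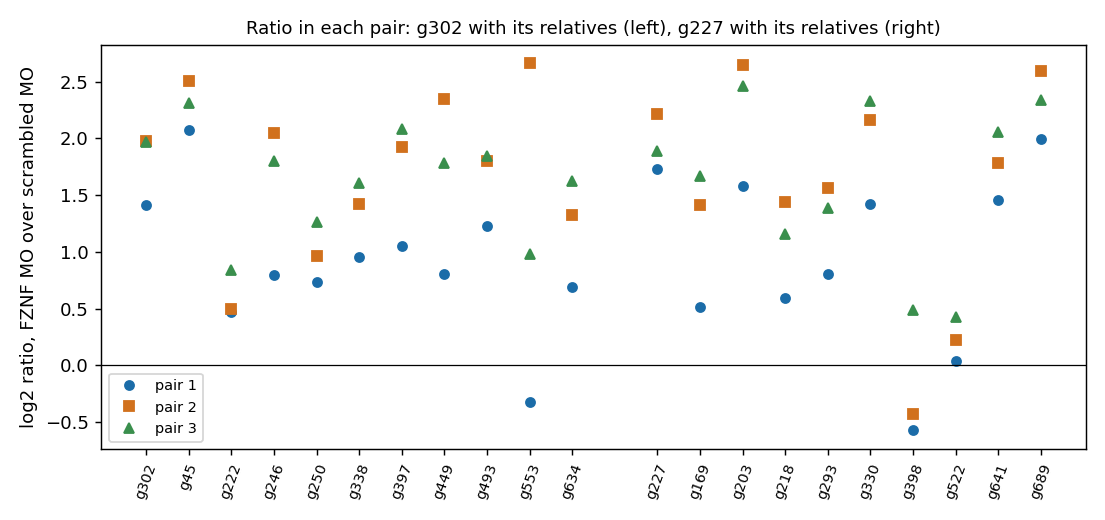
Log2 ratio of TMM-normalized CPM, FZNF MO over scrambled MO, in pairs 1, 2 and 3 for g302 and its 10 paralogs (left) and for g227 and the 9 of its paralogs that passed the filter on low counts (right). Most genes lie above 0 in all pairs; g398 is below 0 in pairs 1 and 2, g553 in pair 1, and g522 stays between 0.037 and 0.43.

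The paralog that shared the most 150-base windows with g227 was not called. g398 was 98.61% identical to g227 in its coding sequence, and 385 of the 931 windows of 150 bases of g227 occurred in it unchanged. Its counts were 75, 208 and 193 in scrambled MO replicates 1 to 3 and 60, 130 and 258 in FZNF MO replicates 1 to 3. The groups overlapped, and edgeR fitted -0.15 ± 0.28 (SE) on the log2 scale, with an adjusted p of 0.818. g522, 98.06% identical to g227, had 436, 637 and 575 counts with the scrambled MO and 532, 626 and 738 with the FZNF MO (log2 fold change 0.23 ± 0.16 SE, edgeR adjusted p = 0.454).

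g330, 98.43% identical to g227 with 17 substitutions, had 401, 299 and 253 counts with the scrambled MO and 1281, 1126 and 1211 with the FZNF MO. edgeR fitted 1.97 ± 0.19 (SE) on the log2 scale, with an adjusted p of 9.86e-05. g641 was 83.15% identical to g227, with 98 substitutions and 84 gap columns. It had 0 windows of 150 bases in common with g227 and was called higher. g398, g522 and g330, like g689, g449, g246, g218 and g293, were named after their values were seen. Over all 84 other coding sequences, 464 of the 931 windows of g227 (49.8%) occurred in at least 1. Windows were read from coding sequence only, so sharing in untranslated exon sequence was not tested.

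**Figure D5:**
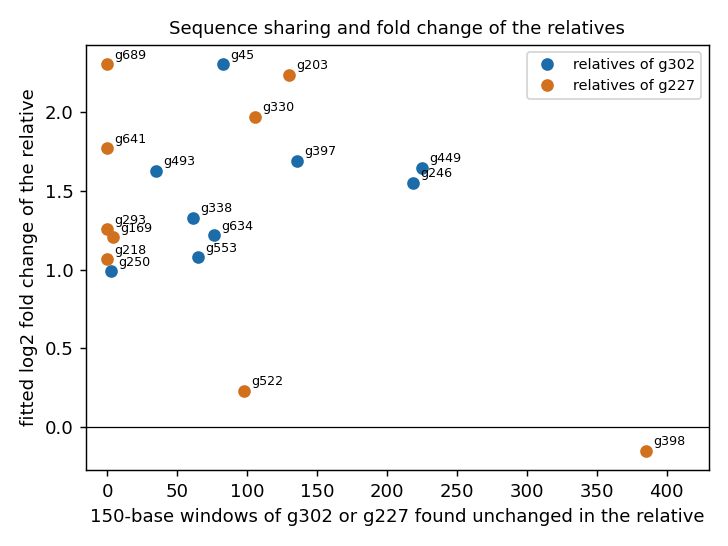
Number of 150-base windows of g302 (of 1003) or g227 (of 931) that occur unchanged in a paralog's coding sequence (x axis) against the fitted log2 fold change of that paralog (y axis), for 9 paralogs of each gene. g398 shares most windows with g227 (385) at a log2 fold change of -0.15. g218, g293, g641 and g689 share 0 at 1.07, 1.25, 1.77 and 2.30, and g689 passed the filter on low counts only through the FZNF MO. Windows that a paralog shares with other FZNFs are not counted. Whether shared reads have a part in these fold changes was not tested. Among paralogs of g302, g449 and g246 share most (225 and 219) at 1.64 and 1.55.

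The group of 13 that holds g227 took 4.19% ± 0.0866 of the FZNF counts with the scrambled MO and 6.16% ± 0.230 with the FZNF MO (SD, n = 3 each). Within it the share of g227, again a gene chosen for being higher, was 15.3% ± 2.84 with the scrambled MO and 20.9% ± 0.472 with the FZNF MO. Without g227, its 12 paralogs held 3.71%, 3.57% and 3.36% of the FZNF counts in scrambled MO replicates 1 to 3. In FZNF MO replicates 1 to 3 they held 4.72%, 5.12% and 4.80%. Summed into 1 feature, again a step added after seeing the data, the 13 genes had a log2 fold change of 1.49, against 1.95 for g227 alone. In the study's other 5 groups of paralogs, edgeR called higher 7 of 10 tested, 2 of 8, 1 of 11, 6 of 10 and 1 of 10 genes, and called none lower, against 30.9% of FZNFs and 3.27% of all features called higher. Their median log2 fold changes were 2.88, 0.42, 0.85, 1.48 and -0.80. The first 23 bases shown for g302 opened 7 of 10 coding sequences in the group of g302 and 11 of 13 in that of g227. In the other 5 groups, in the same order, they opened 8 of 11, 1 of 11, 11 of 11, 10 of 14 and 12 of 15.

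Across the 6 libraries g1, g302 and g227 followed one another closely. The Pearson correlation of log2 CPM was 0.987 between g1 and g302, 0.984 between g1 and g227, and 0.989 between g302 and g227. These values describe 6 points that fall into the 2 conditions, and the genes were chosen for differing between them. Among 10447 other features with a mean count of at least 100, 119 had a correlation above 0.95 with g1, of which 75 were FZNFs. For g302 these counts were 114 and 74, and for g227 they were 119 and 62. FZNFs made up 288 of the 10448 features compared.

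The features most like g1 over the 6 libraries were the FZNFs g45 (r = 0.999), g695 (0.998) and g507 (0.996). They were followed by usp11, which encodes a ubiquitin-specific protease (ENSDARG00000076303, r = 0.995), and by the unnamed gene ENSDARG00000100185 (0.995). g45 belongs to the group of g302 and stood at 3.16, 3.15 and 3.67 CPM with the scrambled MO and at 13.3, 17.9 and 18.3 CPM with the FZNF MO. A high correlation does not mean a large change: usp11 went only from 9.88 to 10.0 CPM with the scrambled MO to 11.6 to 12.8 CPM with the FZNF MO.

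Those most like g302 were g39 (r = 0.999), g166 (0.999), g720 (0.998), the internal part of the LTR retroelement Gypsy69-I_DR (0.997) and g203 (0.997). Gypsy69-I_DR stood at 55.3, 62.0 and 58.3 CPM with the scrambled MO and at 96.8, 133 and 142 CPM with the FZNF MO. None of these 4 FZNFs was in the group of g302, and g203 was in that of g227. Those most like g227 were zgc:113176 (ENSDARG00000040487, r = 0.995), g78 (0.993), g431 (0.991), its paralog g641 (0.991) and TM7SF3, which encodes a membrane protein with 7 transmembrane spans (ENSDARG00000093658, 0.990). zgc:113176 stood at 31.7, 33.5 and 42.1 CPM with the scrambled MO, highest in replicate 3 as g227 was, and at 56.5, 72.5 and 71.2 CPM with the FZNF MO.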

How the data were processed

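Strand-specific poly(A) libraries were made from pools of embryos. After quality checks in FastQC 0.11.9, the authors aligned reads to GRCz11 (STAR 2.7.5a, multimapping reads kept). TEcount in multimapper mode then gave counts for Ensembl genes, FZNF models of the authors and repeat families. The deposited files hold these counts unscaled. Neither the strand setting nor the annotation's release is given in the sources used here. Reads fitting several paralogs could be shared among them, and what overlapping Ensembl models took was not tested.

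edgeR 4.0.16 (R 4.3.3) was used with filterByExpr by condition, TMM factors and the quasi-likelihood test, with the pair as a block for the MO. The authors' methods describe paired injections, and deviations from group means correlated within pairs (r = 0.451, 0.327 and 0.244). Between pairs r was -0.315 to 0.0583. Subtracting group means lowers these values when those within pairs are positive, so the contrast is in part arithmetic. Features were called at a p under 0.05 after Benjamini-Hochberg adjustment over all tested and a log2 fold change of 0.32 or more in size. Standard errors are the fold change over the root of F. For correlations, log2 CPM was computed after adding a prior count of 2. Coding sequences were aligned with Biopython 1.88, and gap columns counted as differences in percent identity. Replicates differed by more than sampling noise (lowest chi-square per degree of freedom 22.5). A p-value for the MO measures how 3 pairs of pools vary, not embryos. The fit for the day had terms for MO and day but no block for the pair. Its p-values take each library as independent. Alternatives were RLE factors, TMM factors from features that are not FZNFs, no count filter, a filter of 50 counts in 3 libraries, DESeq2 1.42.0, no block, no fold threshold, each pair left out, and, added after the data were seen, counts summed over a group of paralogs.

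Named features were the 3 genes, the 12 FZNFs with the most counts in controls, the 3 paralogs with the most counts per group, and the 5 features most alike to each of the 3 genes. The members and lists were chosen with earlier results of these data known.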

Additional observations from a re-analysis of the deposited data

How the results depend on the processing

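The 3 genes were chosen for being higher, so the positive sign of their log2 fold change was set by the choice. Its size was 1.71 to 1.90 for g1 over 9 alternatives. For g302 it was 1.45 to 1.97 and for g227 1.49 to 2.05, over 10 alternatives each. The lowest values were those summed over the paralogs (1.45 and 1.49). Leaving out each pair gave 1.71 to 1.90, 1.70 to 1.97 and 1.82 to 2.05. The difference in the share of FZNF counts was 2.80 percentage points, 2.69 to 2.98 without 1 pair, and 0.0430 percentage points as a share of all counts, a scale with a larger denominator. Without the replicate block, edgeR called 76 FZNFs higher and 1 lower instead of 160 and 25, 8 paralogs of g302 and 4 of g227. With no count filter 42 FZNFs were lower. Leaving out each pair gave 78 to 189 FZNFs higher and 3 to 48 lower, 5 to 9 paralogs of g302 higher and 3 to 6 of g227. For the day, with no count filter 20 FZNFs were higher and 2 lower, DESeq2 called 7 higher, and without replicate 1 or 2 there were 11 to 16 higher and 1 lower. Except for DESeq2, calls over all features were not counted in these settings. The day difference stayed above the threshold in adjusted p for the 3 genes in every alternative and ranged without replicate 1 or 2 from 0.098 to 0.29 for g1, 0.071 to 0.59 for g302 and 0.36 to 0.73 for g227. g235 turned positive without the block (0.079) and without replicate 1 (0.43). It was called lower without replicate 3 (-0.68), as was g214 (-1.36), which was also called with no count filter (-0.76). The causes were not tested. The 3 genes had at least 470 counts in every library, and the tests rest on 3 pairs.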
